A study of Rattus norvegicus with 52 samples.

Results

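The genes described are the splicing factor and hnRNP genes of the rat kidney, measured in Dahl salt-sensitive rats and congenic strains made from them. A member is a probe set of the Affymetrix RAE230A or RAE230B chip whose annotation gives it 1 gene symbol that starts with Srsf, Sfrs, Sf3a, Sf3b, Srrm, Snrp, Hnrnp, Hnrp or U2af. There were 87 such probe sets of 52 genes among the 31142 non-control probe sets, 62 on RAE230A and 25 on RAE230B. Another 9 probe sets name a member gene beside other genes and were left out. By family, 32 probe sets belong to hnRNP proteins, 20 to SR proteins, 19 to SF3A, SF3B and U2AF, 11 to snRNP proteins and 5 to the SRRM proteins.

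Left-kidney RNA of 26 male rats was hybridised, each rat to 1 chip of each kind, and each rat counts as 1 replicate. The strains were SS/jr, called S, and the congenic strains ET3x1 and ET3x2, which by the usual nomenclature carry a segment of a salt-resistant donor on the S background. At 30 days the rats were weaned onto a diet with 0.4% NaCl, here low salt, and at 39 to 41 days some of each strain were moved to a diet with 4% NaCl, here high salt, for 24 hours. The groups were 5 S rats on each diet, 4 ET3x1 rats on each diet and 4 ET3x2 rats on each diet, all 40 to 42 days old at death. All 6 groups share the S background, the sex and the weaning diet, and the strains were bred, housed and studied at the same time, while the labels give no litter and no processing batch. A whole kidney holds many cell types, so fewer cells of a type and less RNA per cell cannot be told apart.

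Introns are removed from pre-mRNA by the spliceosome, which is built from small nuclear ribonucleoproteins (snRNPs) and many further proteins. The SF3A and SF3B complexes belong to the U2 snRNP, which binds the branch site, and U2AF recognises the end of the intron. SR proteins bind exons and generally favour the use of nearby splice sites, whereas hnRNP proteins coat the pre-mRNA and often oppose them. Many genes of both families carry alternative ends and retained introns, so separate probe sets of 1 gene can read different transcripts of it.

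Values are log2 signals as deposited. A difference is the difference of 2 group means on that scale, with its standard error from limma, and it is called when limma's two-sided p, adjusted by the Benjamini-Hochberg method over all 15473 tested probe sets, is below 0.05. A probe set was tested when its mean reached its chip's median, which 70 member probe sets of 48 genes did. The level of a probe set depends on its own probes and is not set against that of another. Overlap of 2 groups is given for described probe sets, which were chosen in large part by their changes. The share of all tested probe sets without overlap was not counted, so a lack of overlap is not a separate result about the members.

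The libraries carried the markers of kidney tissue. All 13 proximal tubule genes of a marker list lay above their chip's median, with a summed log2 signal of 16.21 to 16.44 over the 26 rats. Genes of several marker lists, these included, were called between strains. Of all tested probe sets, 26.8% were called against S in ET3x1 and 18.2% in ET3x2 on low salt. On high salt the shares were 14.5% and 4.25%. In ET3x1 the collecting duct list and the list of thick ascending limb and distal convoluted tubule did not exceed these shares. Of the 13 proximal tubule genes, 3 were called higher and 2 lower than in S on low salt in ET3x1, and 0 and 3 in ET3x2. On high salt 1 was higher and 2 lower in each congenic strain. Of 7 tested thick ascending limb and distal convoluted tubule genes, 2 were called lower in ET3x2 on low salt and 1 in ET3x1 on high salt, and none higher. Of 9 tested collecting duct genes, 1 was higher and 1 lower in each strain on low salt. Of 14 tested leukocyte genes, 9 were called higher than in S on low salt in ET3x1 and 9 in ET3x2, and none lower. On high salt 1 and 2 of them were called higher, and the summed leukocyte signal was 13.30 to 13.66 in S on low salt, 13.56 to 13.77 in S on high salt and 13.50 to 14.02 over the congenic rats. Of 8 endothelial and smooth muscle genes, 3 were called lower than in S in each of the 4 comparisons, and none higher. Of 4 tested podocyte genes, 2 were called lower in each of these comparisons except ET3x1 on high salt, where 3 were. The podocyte gene Cdkn1c was called higher in ET3x1 on low (0.30 ± 0.10, adjusted p = 0.0243) and high salt (0.34 ± 0.10, adjusted p = 0.0205). The spike-in difference (log2 signal of the bioD minus the bioC control) on RAE230A was 2.95 to 3.29 in the 4 ET3x1 rats on high salt. It was 1.55 to 2.95 in all other rats, with S rats 1 and 2 on high salt at 1.65 and 1.55. The log2 ratio of the 3′ to the 5′ probe set of the Gapdh control was 0.56 to 0.61 in the 4 ET3x1 rats on high salt and 0.65 to 1.01 in all other rats. With this Gapdh ratio as a covariate, the 2246 probe sets called for ET3x1 against S on high salt became 102, and the 2457 called for salt in ET3x1 became 1. Because no other rat had so low a ratio, it and the group of ET3x1 rats on high salt cannot be told apart, and the named member calls with that group are given with the covariate too.

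The most calls were between the congenic strains and S on low salt. Over the 6 groups together, limma's F test called 43 of the 70 tested members, against 49.4% of all tested probe sets. On low salt, 27 members were called between ET3x1 and S, 12 higher and 15 lower in ET3x1, where the background was 26.8% called either way, 16.7% higher and 10.1% lower. Between ET3x2 and S on low salt, 23 were called, 7 higher and 16 lower, with a background of 18.2%, of which 9.49% were higher and 8.71% lower. On high salt the count was 13 for ET3x1, 3 higher and 10 lower (background 14.5%, with 4.89% higher and 9.63% lower), and 8 for ET3x2, all lower (background 4.25%, with 1.28% higher and 2.97% lower). The median difference of the tested members was -0.057 on low and -0.065 on high salt in ET3x1, and -0.071 and -0.125 in ET3x2, while that of all tested probe sets lay between -0.027 and 0.021. The comparisons with S share the S rats of each diet and are not independent. Without rat 2 of ET3x1 on low salt, 14 members were called for ET3x1 on low salt in place of 27. For ET3x2 on low salt, 13 were called without its rat 1 and 15 without its rat 4. For ET3x1 on high salt the count was 5 without its rat 4, and 8 and 7 without S rats 1 and 3. For ET3x2 on high salt it was 0 without its rat 2, 1 without its rat 4, and 2, 2 and 3 without S rats 1, 2 and 3. With the Gapdh ratio as covariate, 21 and 11 members were called on low salt and 0 and 12 on high salt, in ET3x1 and ET3x2. The ET3x2 rats on low salt had the highest group mean of that ratio, 0.95. The 11 calls kept there were 2 higher and 9 lower.

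The calls of the families lay in different directions on low salt. The background there was 16.7% higher and 10.1% lower in ET3x1, and 9.49% higher and 8.71% lower in ET3x2. On low salt, hnRNP probe sets were called lower in ET3x1 9 times and higher 1 time out of 29, and in ET3x2 10 times lower and 0 times higher. SR probe sets were called lower 5 times and higher 1 time out of 12 in each strain. SF3A, SF3B and U2AF probe sets went the other way, with 6 higher and 1 lower out of 16 in ET3x1 and 4 higher and 1 lower in ET3x2. Of 8 snRNP probe sets, 3 and 2 were higher and none lower. On high salt the calls were 0 higher and 5 lower in ET3x1 and 0 higher and 6 lower in ET3x2 for hnRNP probe sets, and 0 higher with 1 and 2 lower for SR probe sets. SF3A, SF3B and U2AF probe sets had 1 higher and 1 lower in ET3x1 and none called in ET3x2, and snRNP probe sets 1 higher in ET3x1 and none called in ET3x2. The background on high salt was 4.89% higher and 9.63% lower in ET3x1, and 1.28% and 2.97% in ET3x2. In ET3x1 on high salt 17.2% of hnRNP and 8.33% of SR probe sets were called. The share was 12.5% for SF3A, SF3B and U2AF and 12.5% for snRNP probe sets. It was 80% for the 5 SRRM probe sets, which read 2 genes. Of all tested probe sets 14.5% were called. The difference between the diets was not tested for a family. Of the hnRNP probe sets on high salt, 1 of the 29 lay above 0 in ET3x2, where the median hnRNP difference was -0.258. Quantile normalization changed the split on low salt in ET3x1 from 12 higher and 15 lower to 7 higher and 20 lower, and centring the array medians gave 11 and 11. Of 14 leukocyte markers, 9 were called higher in each of the low-salt comparisons in which these families had their calls, and their part in these results was not tested.

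**Figure D1:**
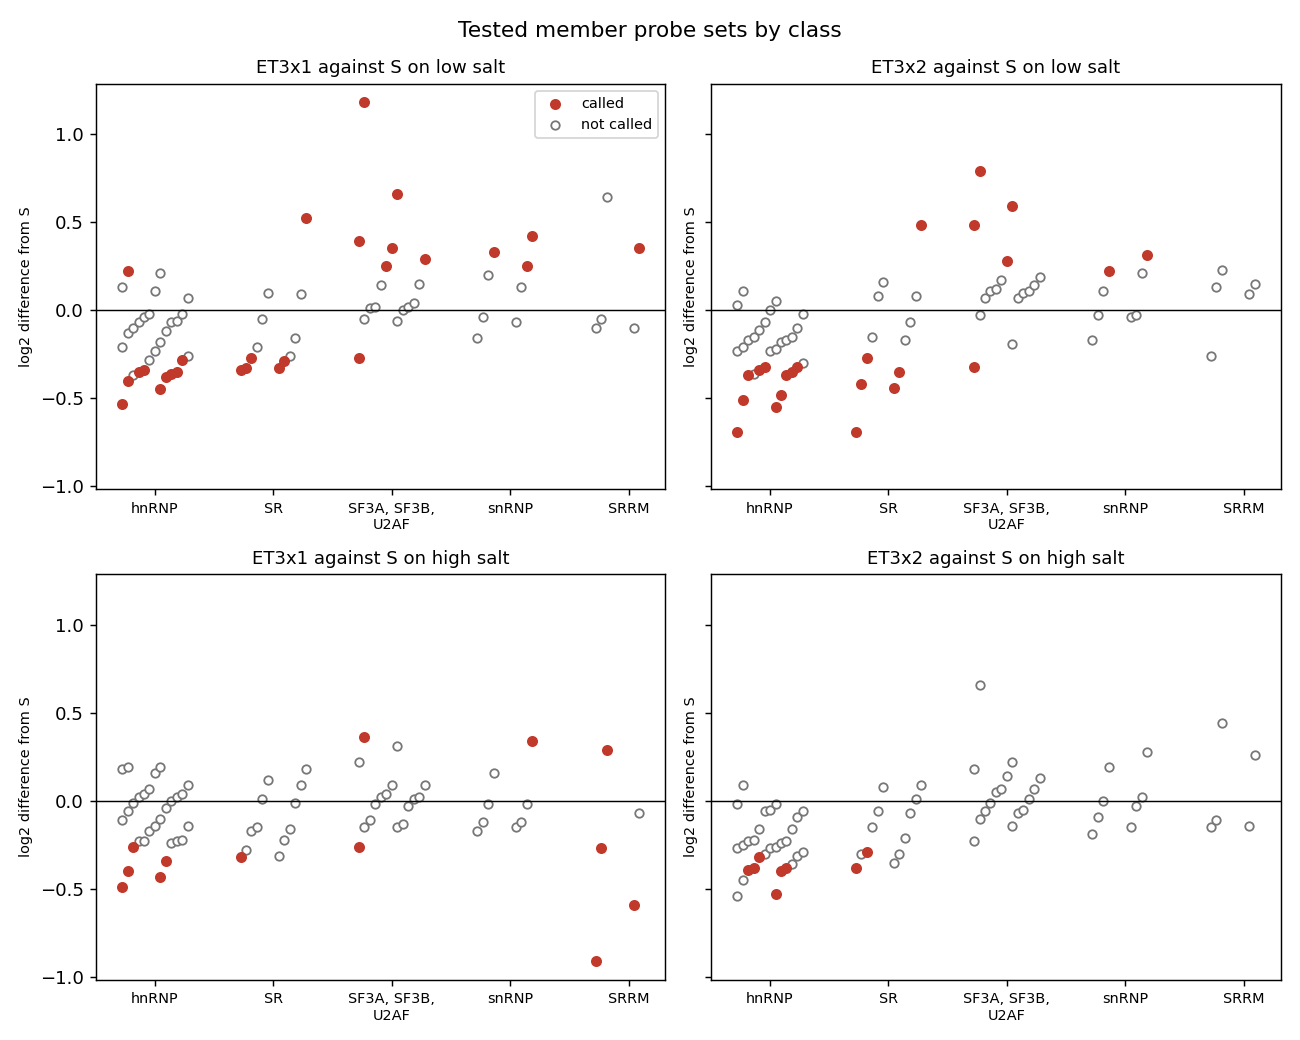
Log2 difference of each of the 70 tested member probe sets from S (vertical axis), by gene family (horizontal axis), for each congenic strain and diet; filled red points were called by limma at an adjusted p below 0.05 and open points were not. On low salt the called hnRNP and SR points lie mostly below 0 and the called SF3A, SF3B, U2AF and snRNP points mostly above it, and on high salt 13 points are called for ET3x1 and 8 for ET3x2.

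As examples of member promoters, the 250 bases before the annotated start are given for 4 genes. Hnrnpa3 and Hnrnpa2b1 are hnRNP genes called lower in both congenic strains on low salt. Sf3b5 and Snrpd2 are spliceosome subunit genes called higher. The ET3x2 calls of Sf3b5 and Snrpd2 ended with the Gapdh ratio as covariate (adjusted p = 0.054 and 0.118). The genes were picked by their calls, and their windows do not stand for their families. The sequences are RefSeq's on the GRCr8 build, read 5′ to 3′ on the gene's strand. Capitals mark any match, on either strand, to 4 motifs. These are GGGCGG, known as the GC box, and CCAAT, which NF-Y binds in many promoters. The others are TATAAA, known as the TATA box, and CCGGAAG, a core bound by ETS-family factors.
Hnrnpa3, chr3:80985684-80985933, plus strand: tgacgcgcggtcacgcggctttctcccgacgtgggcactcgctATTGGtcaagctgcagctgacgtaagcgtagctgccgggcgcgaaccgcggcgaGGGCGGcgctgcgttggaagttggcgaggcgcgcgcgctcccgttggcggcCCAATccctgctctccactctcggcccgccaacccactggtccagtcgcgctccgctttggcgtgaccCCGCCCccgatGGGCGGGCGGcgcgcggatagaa
Hnrnpa2b1, chr4:81875887-81876136, minus strand: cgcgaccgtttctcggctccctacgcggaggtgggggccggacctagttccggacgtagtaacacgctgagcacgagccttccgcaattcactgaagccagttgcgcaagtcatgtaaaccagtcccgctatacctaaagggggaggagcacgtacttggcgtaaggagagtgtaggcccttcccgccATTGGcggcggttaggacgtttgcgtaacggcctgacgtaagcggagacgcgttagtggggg
Sf3b5, chr1:9176939-9177188, plus strand: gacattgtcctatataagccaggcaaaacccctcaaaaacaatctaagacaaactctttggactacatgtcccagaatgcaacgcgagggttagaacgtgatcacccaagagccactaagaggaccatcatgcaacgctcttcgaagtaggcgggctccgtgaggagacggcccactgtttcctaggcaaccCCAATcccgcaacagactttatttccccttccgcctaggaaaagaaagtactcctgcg
Snrpd2, chr1:87926159-87926408, plus strand: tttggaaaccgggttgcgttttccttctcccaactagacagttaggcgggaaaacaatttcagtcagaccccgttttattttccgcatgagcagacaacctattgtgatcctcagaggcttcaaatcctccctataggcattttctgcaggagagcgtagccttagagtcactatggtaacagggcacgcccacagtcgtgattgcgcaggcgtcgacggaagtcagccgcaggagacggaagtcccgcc
The Hnrnpa3 window held 4 matches to GGGCGG and 2 to CCAAT, with 39 CG dinucleotides. The Hnrnpa2b1 window held 1 CCAAT and 26 CG dinucleotides. The Sf3b5 window held 1 CCAAT and 11 CG dinucleotides, and the Snrpd2 window none of the 4 motifs and 15 CG dinucleotides.

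Of the 52 member genes, 48 had an entry in the RefSeq table, with 52 windows between them. Their median window held 21 CG dinucleotides, where the median over all 33469 windows was 5. GGGCGG was in 63.5% of member windows and 30.5% of all windows, CCAAT in 53.8% and 34.0%, CCGGAAG in 28.8% and 7.3%, and TATAAA in 11.5% and 12.9%. These are matches of letters only, and the data hold no measure of binding. Windows were not compared between families or between members called higher and lower. All windows cover 27457 genes, which include genes not tested here.

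Among the hnRNP proteins, Hnrnpa3 had the most calls. It is an RNA-binding protein of the A/B group, and 5 probe sets read it. For 1370872_at the S rats on low salt had 8.52, 8.62, 8.76, 8.82 and 8.83, the ET3x1 rats 8.17, 8.25, 8.49 and 8.53, and the ET3x2 rats 8.45, 8.32, 8.46 and 8.12. On high salt the S rats had 8.94, 8.85, 9.06, 8.82 and 8.93, the ET3x1 rats 8.57, 8.59, 8.80 and 8.68, and the ET3x2 rats 8.68, 8.46, 8.58 and 8.43. Every ET3x2 rat lay below every S rat on both diets, and the ET3x1 rats did so on high salt, while on low salt 1 ET3x1 rat overlapped S by 0.01. The differences from S were -0.35 ± 0.09 (SE, adjusted p = 0.00489) in ET3x1 and -0.37 ± 0.09 (adjusted p = 0.00446) in ET3x2 on low salt, and -0.26 ± 0.09 (adjusted p = 0.042) and -0.38 ± 0.09 (adjusted p = 0.016) on high salt. The high-salt call in ET3x1 ended when any of 6 rats was left out, with an adjusted p of up to 0.105, and with the Gapdh ratio as covariate it was -0.30 with an adjusted p of 0.239. That in ET3x2 ended without its rat 2 (adjusted p = 0.0674) or its rat 4 (adjusted p = 0.0748).

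The other probe sets of Hnrnpa3 were not all called, and none was called higher than S. Of the 5, 4 were called lower in ET3x1 and 2 in ET3x2 on low salt. On high salt 1 and 3 were. On low salt 1370871_at was lower with a difference of -0.35 ± 0.09 in ET3x1 (adjusted p = 0.00867) and of -0.55 ± 0.09 in ET3x2 (adjusted p = 4.6e-04), where the 4 ET3x2 rats, at 9.94, 9.85, 9.93 and 9.73, lay clear of the S rats at 10.27, 10.38, 10.48, 10.39 and 10.54. Probe set 1374405_at was called in ET3x1 on low salt (-0.36 ± 0.11, adjusted p = 0.0158), a call that ended without rat 2 of that group (-0.25, adjusted p = 0.105). So was 1394741_at (-0.34, adjusted p = 0.0314), a call that ended with the Gapdh ratio as covariate (-0.27, adjusted p = 0.0573). In ET3x2 on high salt 1394741_at (-0.53, adjusted p = 0.0139) and 1374405_at (-0.39, adjusted p = 0.041) were lower. No member was called there without ET3x2 rat 2. Probe set 1388119_at was called in none of the 4 comparisons with S, and its group means spanned 10.63 to 10.84.

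**Figure D2:**
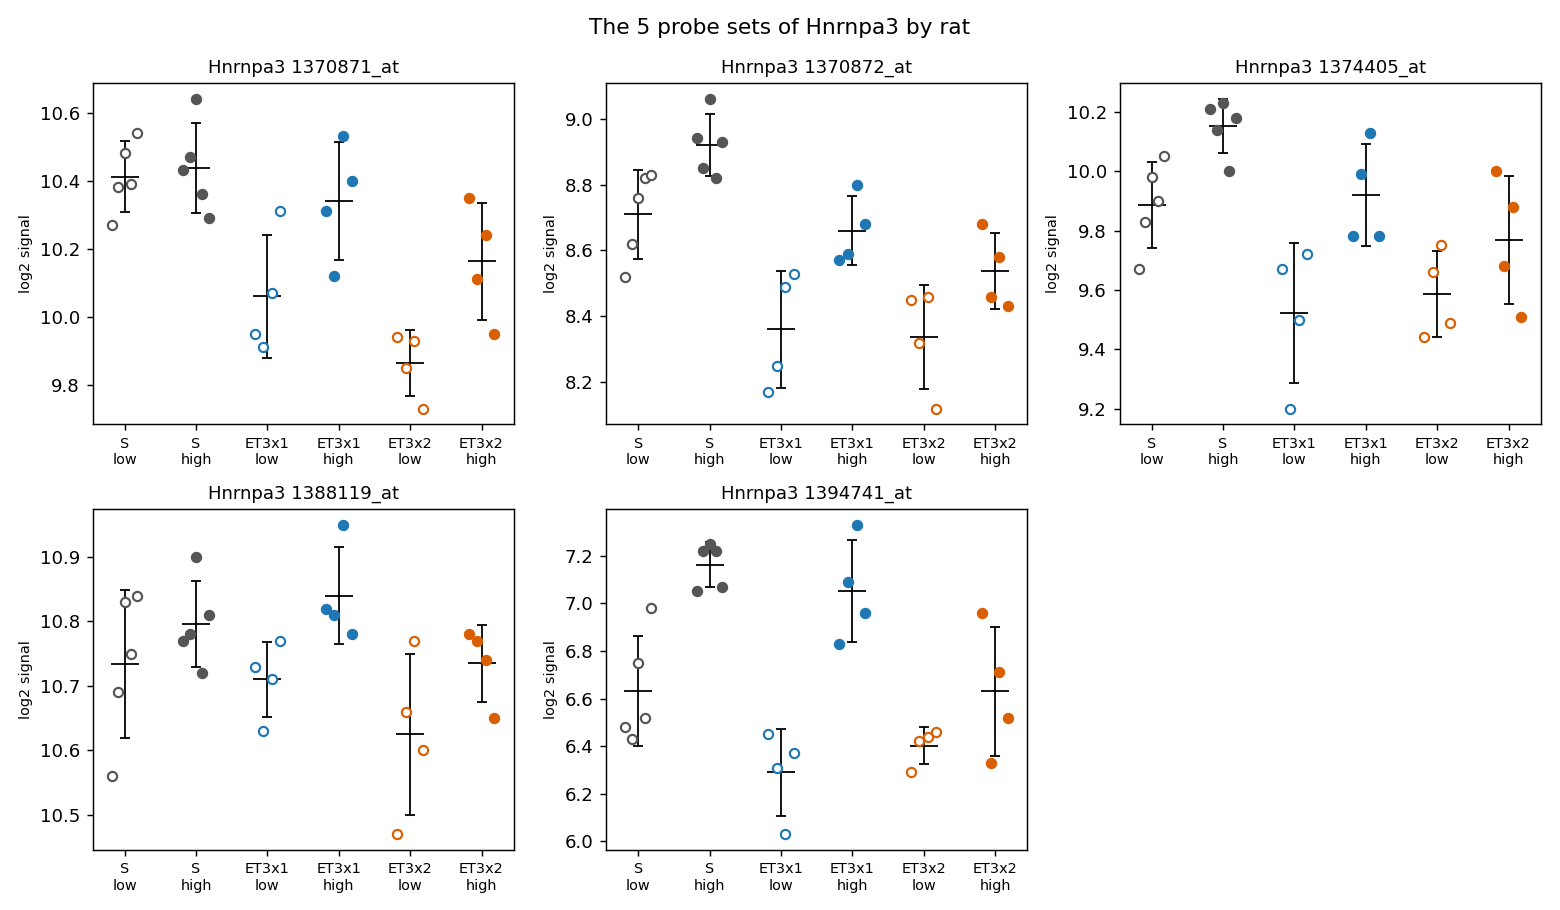
Log2 signal (vertical axis) of the 5 probe sets of Hnrnpa3 in each rat, by strain and diet (horizontal axis); open points are low-salt and filled points high-salt rats, and the bars show mean and SD of the 5 S, 4 ET3x1 or 4 ET3x2 rats. In 1370872_at the ET3x2 rats sit below the S rats on both diets, and in 1388119_at the group means span only 10.63 to 10.84.

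Hnrnpa2b1, which binds nuclear pre-mRNA and takes part in mRNA transport, had 3 tested probe sets. In 1373540_at the S rats on low salt had 9.11, 9.12, 9.17, 9.12 and 9.03, the ET3x1 rats 8.73, 8.30, 8.67 and 8.58, and the ET3x2 rats 8.26, 8.64, 8.93 and 8.57. No congenic rat reached the lowest S rat. The difference was -0.53 ± 0.12 in ET3x1 (1.45-fold lower, adjusted p = 0.00228) and -0.51 ± 0.12 in ET3x2 (adjusted p = 0.00443). Probe set 1398883_at had 9.69, 9.63, 9.67, 9.45 and 10.09 in S on low salt and 8.89, 9.04, 9.18 and 8.94 in ET3x2, without overlap, a difference of -0.69 ± 0.13 (adjusted p = 8.73e-04). In ET3x1 its rats had 9.55, 8.97, 9.63 and 9.56, which overlap S, and the difference was not called. Probe set 1378543_at was called in no comparison.

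Hnrnpu encodes a large nuclear protein that binds RNA and chromatin, and its 3 probe sets were not all called in the same strain on low salt. Probe set 1372823_at had 8.22, 8.29, 8.36, 8.27 and 8.35 in S on low salt and 7.87, 7.77, 8.01 and 7.74 in ET3x1, which did not overlap, and was lower with a difference of -0.45 ± 0.11 (adjusted p = 0.00436). The ET3x2 rats, at 8.04, 8.27, 8.53 and 8.34, spread around the S values. In the other 2 probe sets it was ET3x2 that was called lower on low salt, with a difference of -0.35 ± 0.11 in 1370170_at (adjusted p = 0.0209) and -0.32 ± 0.08 in 1370171_at (adjusted p = 0.00952). The call of 1370171_at ended without ET3x2 rat 1 (adjusted p = 0.0656), and that of 1370170_at without S rat 5, ET3x2 rat 2 or ET3x2 rat 3 (adjusted p = 0.0501 to 0.055). That of 1370170_at also ended with the Gapdh ratio as covariate (-0.25, adjusted p = 0.163). Between the congenic strains on low salt, 1372823_at was higher in ET3x2 by 0.45 ± 0.12 (adjusted p = 0.0338), a call that 6 of the rats each ended when left out (adjusted p up to 0.11). The other 2 probe sets were not called between the congenic strains on low salt.

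Hnrnpr, a nuclear RNA-binding protein, was lower in ET3x2 on low salt with a difference of -0.48 ± 0.11 (adjusted p = 0.00388). Its rats had 7.82, 7.71, 8.24 and 7.86, all below the S rats at 8.28, 8.42, 8.44, 8.31 and 8.51. Hnrnpll, known for regulating the splicing of Ptprc in lymphocytes, was lower than S in ET3x1 on low salt with a difference of -0.40 ± 0.11 (adjusted p = 0.00973), with 6.80, 6.43, 6.64 and 6.51 against 7.13, 6.97, 6.77, 6.95 and 7.17 in S. The highest ET3x1 rat lay above the lowest S rat. Hnrnpf, which binds G-rich RNA, had 8.95, 8.65, 8.84 and 9.10 in ET3x1 on low salt and 9.18, 9.22, 9.48, 9.02 and 9.43 in S, a difference of -0.38 ± 0.10 (adjusted p = 0.00841). Its call ended without rat 2 of ET3x1 (-0.30, adjusted p = 0.0534).

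On high salt, Hnrnpf was lower in ET3x2 with a difference of -0.38 ± 0.10 (adjusted p = 0.0346), with 9.31, 8.88, 9.28 and 9.14 against 9.56, 9.48, 9.69, 9.54 and 9.41 in S. The groups did not overlap, but the call ended when any of 5 rats was left out (adjusted p up to 0.154). Hnrnpdl, a relative of the AU-rich element binding protein Hnrnpd, had 2 probe sets called in opposite directions in ET3x1 on low salt. Probe set 1372810_at was lower with a difference of -0.28 ± 0.10 (adjusted p = 0.0319) and 1378967_at higher by 0.22 ± 0.08 (adjusted p = 0.0321). The first call ended when any of 5 rats was left out (adjusted p up to 0.101) and the second with any of 4 (adjusted p up to 0.128), and centring the array medians ended that of 1372810_at (adjusted p = 0.0508). Another Hnrnpdl probe set, 1371333_at, was lower in ET3x1 on high salt with a difference of -0.40 ± 0.08 (adjusted p = 0.00287), and of -0.41 with the Gapdh ratio as covariate (adjusted p = 0.0879).

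Among the SR proteins, Srsf2, also known as SC35 and a marker of nuclear speckles, was lower in ET3x1 by both of its probe sets on low salt. In 1371839_at the S rats had 8.63, 8.90, 8.92, 8.58 and 8.79 and the ET3x1 rats 8.54, 8.28, 8.39 and 8.47, without overlap, a difference of -0.34 ± 0.07 (adjusted p = 0.00135). ET3x2 stood at 8.78, 8.92, 8.93 and 8.76, among the S values, and was higher than ET3x1 by 0.43 ± 0.07 (adjusted p = 0.00283), with no overlap. The probe set 1371838_at did not separate the congenic strains in that way. It was lower than S with a difference of -0.29 ± 0.08 in ET3x1 (adjusted p = 0.01) and of -0.35 ± 0.08 in ET3x2 (adjusted p = 0.00392). In it the S rats had 10.87, 11.00, 11.11, 10.88 and 10.93, the ET3x1 rats 10.66, 10.54, 10.75 and 10.74, and the ET3x2 rats 10.55, 10.61, 10.76 and 10.51, so that no congenic rat reached S. The ET3x1 call of 1371838_at ended without rat 2 of that group (-0.24, adjusted p = 0.0525).

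Srsf5, an SR protein that binds exonic enhancers, was lower in ET3x2 on low salt with a difference of -0.44 ± 0.11 (adjusted p = 0.00746). Its 4 rats, at 10.04, 10.18, 10.20 and 9.74, lay below the 5 S rats at 10.40, 10.45, 10.56, 10.40 and 10.57. Srsf1, the prototype of the family, was lower by 1374072_at in both strains on low salt, with a difference of -0.33 ± 0.12 in ET3x1 (adjusted p = 0.047) and -0.42 ± 0.12 in ET3x2 (adjusted p = 0.0205). Its congenic rats ranged from 7.35 to 8.08 and overlapped S, at 7.97 to 8.13. The ET3x1 call ended when any of 16 rats was left out (adjusted p up to 0.169), and the ET3x2 call without ET3x2 rat 1 (adjusted p = 0.12) or rat 4 (adjusted p = 0.0959). Both also ended with the Gapdh ratio as covariate, at -0.33 (adjusted p = 0.0649) in ET3x1 and -0.40 (adjusted p = 0.0794) in ET3x2. Srsf6 was lower in ET3x2 by 1372075_at (-0.27 ± 0.09, adjusted p = 0.0358), which ended when any of 5 rats was left out (adjusted p up to 0.143). The Gapdh covariate ended the Srsf6 call too (-0.20, adjusted p = 0.195).

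Srsf11 encodes an SR-related protein associated with U2AF, and its 2 tested probe sets moved in opposite directions. In 1382056_at the S rats on low salt had 7.31, 7.56, 7.59, 7.43 and 7.43, the ET3x1 rats 7.88, 8.46, 7.83 and 7.78, and the ET3x2 rats 8.05, 8.09, 7.79 and 7.85. All congenic rats lay above all S rats, with differences of 0.52 ± 0.10 (1.44-fold, adjusted p = 8.62e-04) and 0.48 ± 0.10 (1.39-fold, adjusted p = 0.00223). In 1368212_at the same S rats had 8.87, 8.84, 8.83, 8.74 and 9.12, the ET3x1 rats 8.46, 8.25, 8.71 and 8.77, and the ET3x2 rats 8.04, 8.10, 8.55 and 8.06. Here the ET3x2 rats lay below all S rats and the highest ET3x1 rat overlapped them. The differences were -0.69 ± 0.12 in ET3x2 (1.62-fold lower, adjusted p = 4.74e-04) and -0.33 ± 0.12 in ET3x1 (adjusted p = 0.0412), the latter ended by leaving out any of 5 rats (adjusted p up to 0.195). The ET3x1 call of 1368212_at also ended with the Gapdh ratio as covariate (-0.32, adjusted p = 0.0613). No rat left out and no alternative ended the 2 calls of 1382056_at or the ET3x2 call of 1368212_at.

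Sf3b1, the largest subunit of SF3B and the one that holds the branch site, gave the largest difference from S of the 70 tested members. In 1389840_at the S rats on low salt had 7.76, 7.66, 8.89, 8.52 and 8.56, the ET3x1 rats 9.28, 9.69, 9.56 and 9.28, and the ET3x2 rats 9.26, 9.12, 8.95 and 8.96. S spread over more than 1 log2 unit, and even so all congenic rats lay above it. The differences were 1.18 ± 0.20 in ET3x1 (2.26-fold, adjusted p = 2.76e-04) and 0.79 ± 0.20 in ET3x2 (1.73-fold, adjusted p = 0.00664), and they kept their call with every rat left out and under every alternative. On high salt the S rats had 8.13, 8.23, 8.86, 8.31 and 8.31, the ET3x1 rats 8.13, 8.47, 8.50 and 8.25, and the ET3x2 rats 9.30, 9.39, 8.78 and 8.64. There ET3x1 lay among the S rats, 2 of the 4 ET3x2 rats lay above them, and neither difference from S was called. Between the congenic strains on high salt Sf3b1 was higher in ET3x2 by 0.69 ± 0.21 (adjusted p = 0.0353), and with the Gapdh ratio as covariate the difference was 0.61 (adjusted p = 0.275). The second tested probe set, 1390234_at, was lower on low salt with a difference of -0.27 ± 0.09 in ET3x1 (adjusted p = 0.0339) and of -0.32 ± 0.09 in ET3x2 (adjusted p = 0.016). Its S rats had 9.19, 9.10, 9.37, 9.12 and 9.33, its ET3x1 rats 9.01, 8.69, 9.10 and 9.03, and its ET3x2 rats 8.81, 8.96, 8.96 and 8.85, which alone lay wholly below S. The ET3x1 call ended without S rat 3, S rat 5 or ET3x1 rat 2 (adjusted p = 0.0686 to 0.187), and the ET3x2 call without its rat 1 (adjusted p = 0.0671). Both also ended with the Gapdh ratio as covariate, at -0.25 (adjusted p = 0.0577) in ET3x1 and -0.28 (adjusted p = 0.0969) in ET3x2. The remaining one, 1382691_at, lay below the filter, with group means of 3.79 to 3.88.

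**Figure D3:**
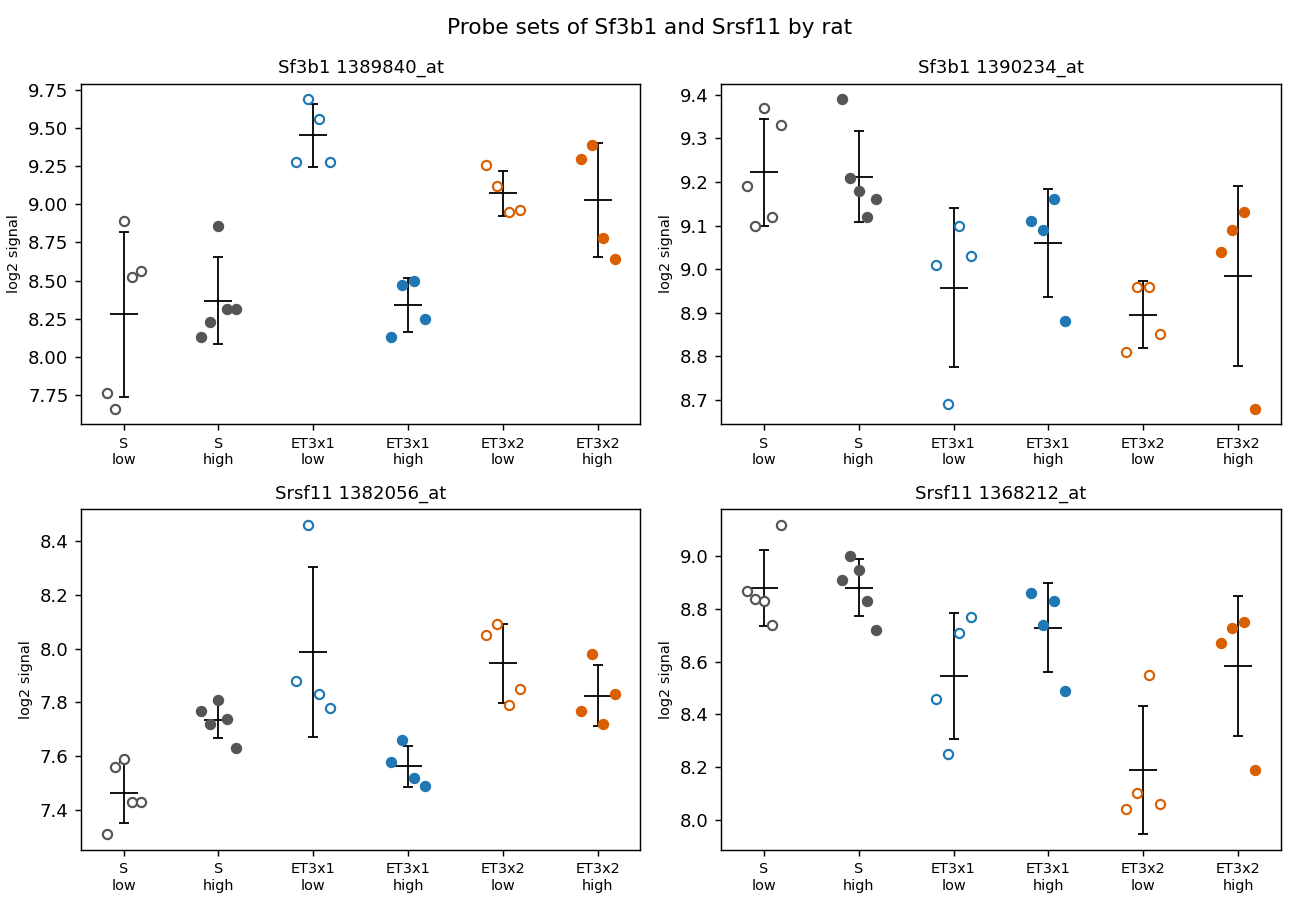
Log2 signal (vertical axis) in each rat of 2 probe sets of Sf3b1 (top) and 2 of Srsf11 (bottom), by strain and diet (horizontal axis), with mean and SD; open points are low-salt and filled points high-salt rats. On low salt the congenic rats lie above S in the left panels, and in the right panels the ET3x2 rats lie below S.

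Sf3b5, a small subunit of the same complex, was higher in ET3x1 on low salt by 0.66 ± 0.16 (1.58-fold, adjusted p = 0.00452). The S rats had 8.32, 8.80, 8.73, 8.69 and 8.81 and the ET3x1 rats 9.14, 9.33, 9.31 and 9.52, without overlap. In ET3x2 the rats had 9.68, 9.19, 8.68 and 9.48, of which 1 lay within S. The difference of 0.59 ± 0.16 (adjusted p = 0.0123) lost its call without ET3x2 rat 1 (0.45, adjusted p = 0.0846) or rat 4 (0.51, adjusted p = 0.0516). That call also ended with the Gapdh ratio as covariate (0.58, adjusted p = 0.054). Sf3b4, which binds near the branch site, was higher in ET3x1 by 0.25 ± 0.07 (adjusted p = 0.00761), with 10.29, 10.46, 10.32 and 10.27 against 10.20, 10.13, 10.02, 10.08 and 10.01 in S. Quantile normalization ended the Sf3b4 call (adjusted p = 0.315), where the other alternatives kept it.

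U2af1l4, a relative of the small U2AF subunit, was higher on low salt by 1373205_at in ET3x1 (0.35 ± 0.09, adjusted p = 0.00542). Its rats had 8.10, 8.37, 8.08 and 8.21, and the S rats 7.68, 7.87, 8.09, 7.70 and 7.84, of which 1 overlapped. In ET3x2 the difference was 0.28 ± 0.09 (adjusted p = 0.0312), and 5 rats each ended that call (adjusted p up to 0.164). The Gapdh covariate ended it too (0.27, adjusted p = 0.0995). U2af1, the small subunit itself, which reads the AG at the end of the intron, was higher by 0.39 ± 0.15 in ET3x1 (adjusted p = 0.0497) and 0.48 ± 0.15 in ET3x2 (adjusted p = 0.023), with overlapping groups. Neither U2af1 call was kept under the Gapdh covariate, at 0.40 (adjusted p = 0.0546) in ET3x1 and 0.51 (adjusted p = 0.0589) in ET3x2. Sf3a2, a subunit of SF3A, was higher in ET3x1 by 0.29 ± 0.09 (adjusted p = 0.0217). The Gapdh covariate kept the Sf3a2 call (0.29, adjusted p = 0.0319) and the spike-in difference as covariate ended it (0.23, adjusted p = 0.0931). Limma's F test over the 6 groups did not call Sf3a2 (adjusted p = 0.129). On high salt Sf3b2, an SF3B subunit, was higher in ET3x1 by 1377070_at, with 8.07, 8.28, 8.38 and 8.20 against 7.92, 7.79, 7.76, 7.95 and 7.97 in S. That difference of 0.36 ± 0.08 (adjusted p = 0.00308) was 0.33 with the Gapdh ratio as covariate (adjusted p = 0.138), and the other Sf3b2 probe set, 1388614_at, was called in no comparison.

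Among the snRNP proteins, Snrpd2, a protein of the Sm ring on the spliceosomal snRNAs, was higher in ET3x1 on both diets. On low salt its rats had 9.77, 9.93, 9.97 and 10.04, above the S rats at 9.13, 9.44, 9.69, 9.57 and 9.73, a difference of 0.42 ± 0.11 (1.34-fold, adjusted p = 0.00743). On high salt they had 9.88, 9.96, 9.81 and 9.93 against 9.57, 9.54, 9.51, 9.69 and 9.48, again without overlap. That difference was 0.34 ± 0.11 (adjusted p = 0.0408), with 0.33 under the Gapdh covariate (adjusted p = 0.317), and 8 rats each ended the call (adjusted p up to 0.0998). The difference of 0.31 ± 0.11 for ET3x2 on low salt (adjusted p = 0.0483) was ended by leaving out any of 20 rats (adjusted p up to 0.182). Snrpa, a protein of the U1 snRNP, was higher in ET3x2 than in S by 0.22 ± 0.06 (adjusted p = 0.0129) and than in ET3x1 by 0.26 ± 0.06 (adjusted p = 0.0207) on low salt. Its ET3x2 rats had 8.90, 8.82, 8.67 and 8.63, above the S rats at 8.45, 8.59, 8.53, 8.58 and 8.53 and the ET3x1 rats at 8.36, 8.54, 8.53 and 8.54. The call against S ended without ET3x2 rat 1 (adjusted p = 0.0831) or rat 2 (adjusted p = 0.0503), and that against ET3x1 without either of these or ET3x1 rat 1 (adjusted p = 0.0669 to 0.079). Both also ended with the Gapdh ratio as covariate, at 0.19 against S (adjusted p = 0.0846) and 0.24 against ET3x1 (adjusted p = 0.0537). Snrpb and Snrpe, also Sm proteins, were higher in ET3x1 on low salt by 0.33 ± 0.11 (adjusted p = 0.0278) and 0.25 ± 0.09 (adjusted p = 0.034). The Gapdh covariate kept the Snrpb call (0.33, adjusted p = 0.0345) and ended that of Snrpe (0.24, adjusted p = 0.0518). With the spike-in difference as covariate, the Snrpb call ended (0.30, adjusted p = 0.0618) and that of Snrpe was kept (0.25, adjusted p = 0.0476). Limma's F test over the 6 groups called neither (adjusted p = 0.0813 and 0.103).

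Srrm1 and Srrm2 encode SR-related coactivators of splicing found in nuclear speckles. Of their 5 probe sets, 4 were called between ET3x1 and S on high salt, 1 higher and 3 lower. Of all tested probe sets 14.5% were called there, 4.89% higher and 9.63% lower. With the Gapdh ratio as covariate no member was called in that comparison. Srrm2 was lower by both of its probe sets. In 1398940_at the S rats had 9.01, 9.03, 9.14, 9.16 and 8.93 and the ET3x1 rats 8.50, 8.43, 8.67 and 8.26, without overlap, a difference of -0.59 ± 0.10 (1.51-fold lower, adjusted p = 5.49e-04). The covariate fit gave -0.58 (adjusted p = 0.0506). In 1390048_at the S rats had 9.14, 9.12, 9.52, 9.02 and 8.98 and the ET3x1 rats 8.74, 8.90, 8.11 and 7.22, again without overlap but with a wide spread. That difference of -0.91 ± 0.26 (adjusted p = 0.0191) ended without S rat 3 (adjusted p = 0.0505), ET3x1 rat 3 (adjusted p = 0.0594) or ET3x1 rat 4 (-0.57, adjusted p = 0.123), and with the covariate (-0.81, adjusted p = 0.29).

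The probe sets of Srrm1 disagreed. On high salt in ET3x1, 1371425_at had 9.19, 9.01, 9.07 and 8.95 against 9.22, 9.34, 9.53, 9.31 and 9.22 in S, lower with a difference of -0.27 ± 0.07 (adjusted p = 0.0123). Probe set 1377914_at had 7.73, 7.59, 7.65 and 7.92 against 7.47, 7.56, 7.50, 7.34 and 7.31, higher by 0.29 ± 0.09 (adjusted p = 0.0263). Neither pair of groups overlapped. The first call ended without ET3x1 rat 4 (adjusted p = 0.0573), the second without that rat (adjusted p = 0.121) or S rat 4 or 5 (adjusted p = 0.0578 and 0.0624), and with the Gapdh covariate they were -0.26 (adjusted p = 0.213) and 0.39 (adjusted p = 0.117). On low salt 1377914_at was also higher in ET3x1, by 0.35 ± 0.09 (adjusted p = 0.00457), with 8.00, 8.04, 7.63 and 7.72 against 7.54, 7.31, 7.61, 7.56 and 7.45, a call that no rat and no alternative ended.

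High salt for 24 hours was followed by few calls in S and by none in ET3x2. In S 3 of 70 members were called, all higher, against a background of 2.78% (2.11% higher and 0.666% lower). Hnrnpa3 by 1394741_at was at 6.48, 6.43, 6.75, 6.52 and 6.98 on low salt and at 7.05, 7.22, 7.25, 7.22 and 7.07 on high salt. The groups did not overlap, and the rise of 0.53 ± 0.11 (1.44-fold, adjusted p = 0.00945) kept its call with every rat left out. Hnrnpdl 1371333_at rose by 0.31 ± 0.08 (adjusted p = 0.03) and Srsf2 1371839_at by 0.25 ± 0.07 (adjusted p = 0.0351), and 5 and 7 rats each ended these calls (adjusted p up to 0.101 and 0.141). The count in S was 1 without S low-salt rat 1 or S high-salt rat 1 or 2, and 5 without S low-salt rat 5. In ET3x2 limma called 0 members (background 0.304%, with 0.259% higher and 0.0452% lower), where 10 had an unadjusted p below 0.05 and limma with array weights called 10.

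In ET3x1, high salt was followed by 13 calls, 9 higher and 4 lower, against a background of 15.9% (6.98% higher and 8.9% lower). All 7 called hnRNP probe sets were higher. Hnrnpa3 1394741_at went from 6.45, 6.31, 6.03 and 6.37 to 6.83, 7.09, 7.33 and 6.96, a rise of 0.76 ± 0.12 (1.7-fold, adjusted p = 1.62e-04). Hnrnpd, which binds AU-rich elements and promotes mRNA decay, went from 8.02, 7.53, 7.74 and 7.94 to 8.49, 8.42, 8.47 and 8.25, a rise of 0.60 ± 0.11 (1.52-fold, adjusted p = 3.58e-04). Hnrnpf went from 8.95, 8.65, 8.84 and 9.10 to 9.51, 9.42, 9.48 and 9.49, a rise of 0.59 ± 0.11 (adjusted p = 5.41e-04). In none of these 3 did the diets overlap. Hnrnpa2b1 1398883_at rose by 0.50 ± 0.13 (adjusted p = 0.0135) and Hnrnpll by 0.43 ± 0.12 (adjusted p = 0.0119), and both calls ended without low-salt rat 2 (adjusted p = 0.0882 and 0.0571). Under the Gapdh covariate the values were 0.36 for Hnrnpa3 1394741_at (adjusted p = 0.549), 0.26 for Hnrnpd (adjusted p = 0.625), 0.37 for Hnrnpf (adjusted p = 0.497), 0.51 for Hnrnpll (adjusted p = 0.394) and 0.27 for Hnrnpa2b1 (adjusted p = 0.746), and 0 of the 13 members were called.

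The 4 members that fell on high salt in ET3x1 were 2 of Srrm2 and 1 each of Sf3b1 and Srsf11. Srrm2 1390048_at went from 9.68, 10.25, 9.99 and 9.75 to 8.74, 8.90, 8.11 and 7.22, a change of -1.67 ± 0.27 (3.19-fold lower, adjusted p = 1.77e-04), and 1398940_at from 8.76, 8.85, 9.20 and 9.03 to 8.50, 8.43, 8.67 and 8.26, a change of -0.49 ± 0.10 (adjusted p = 0.00199). Sf3b1 1389840_at went from 9.28, 9.69, 9.56 and 9.28 to 8.13, 8.47, 8.50 and 8.25, a change of -1.12 ± 0.21 (2.17-fold lower, adjusted p = 5.87e-04). Srsf11 1382056_at went from 7.88, 8.46, 7.83 and 7.78 to 7.58, 7.66, 7.52 and 7.49, a change of -0.43 ± 0.11 (adjusted p = 0.00729). All 4 were free of overlap between the diets and kept their call with every rat left out. With the Gapdh ratio as covariate the changes were -1.54 (adjusted p = 0.239), -0.47 (adjusted p = 0.377), -0.97 (adjusted p = 0.37) and -0.16 (adjusted p = 0.811) in the same order, and 1 of all 15473 probe sets was called. Sf3b2 1377070_at and Srsf2 1371839_at rose, by 0.43 ± 0.08 (adjusted p = 5.41e-04) and 0.44 ± 0.07 (adjusted p = 2.61e-04), and with the covariate stood at 0.39 (adjusted p = 0.333) and 0.40 (adjusted p = 0.273).

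**Figure D4:**
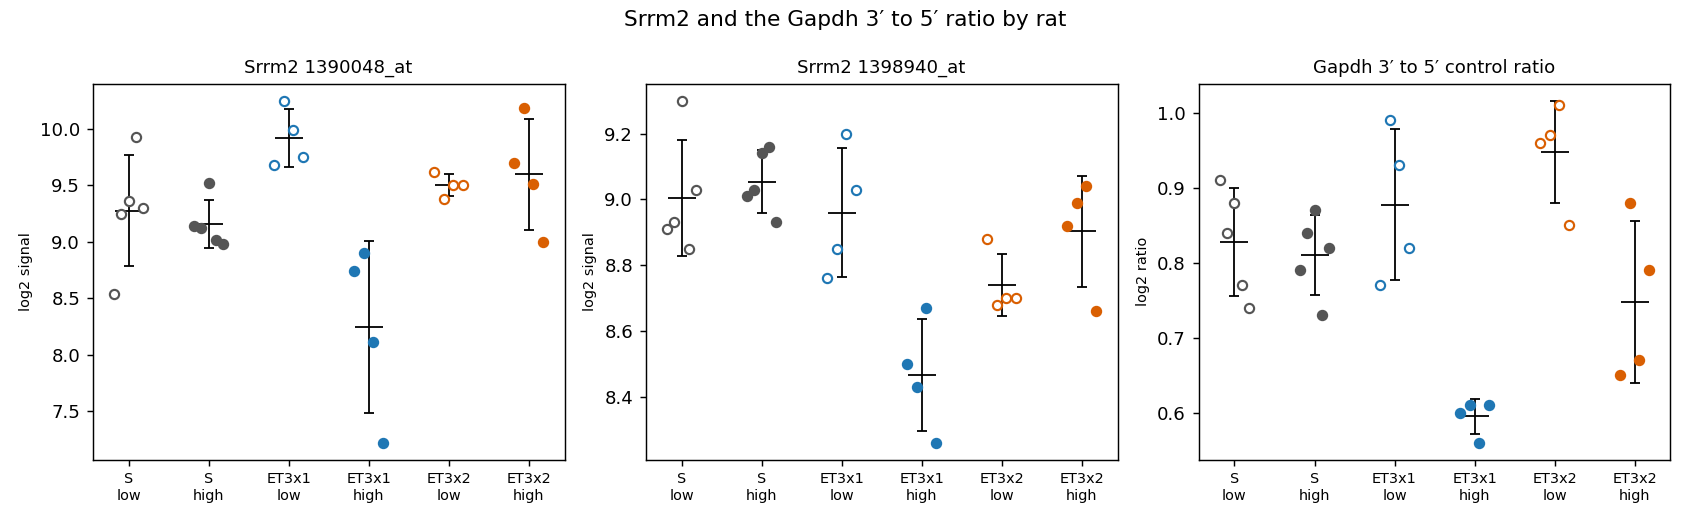
Log2 signal of both probe sets of Srrm2 and the log2 ratio of the 3′ to the 5′ Gapdh control probe set (vertical axes) in each rat, by strain and diet (horizontal axis), with mean and SD; open points are low-salt and filled points high-salt rats. The ET3x1 rats on high salt have the lowest group mean in all 3 panels, and their Gapdh ratios of 0.56 to 0.61 lie below those of all other rats.

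Some of these probe sets differed in their salt response between the strains. Between ET3x1 and S, 4 members (5.71%) were called, near the background of 5.49% (1.42% higher and 4.08% lower). All 4 had a lower response in ET3x1. They were Srrm2 1390048_at (-1.55 ± 0.36, adjusted p = 0.015), Sf3b1 1389840_at (-1.21 ± 0.28, adjusted p = 0.0137), Srsf11 1382056_at (-0.69 ± 0.14, adjusted p = 0.00735) and Srrm2 1398940_at (-0.55 ± 0.14, adjusted p = 0.0236). With the Gapdh covariate they were -1.43, -1.07, -0.44 and -0.53, and none was called (adjusted p from 0.329 to 0.383). The count of 4 became 7 without S low-salt rat 3 and 8 without ET3x1 low-salt rat 1, and the call of Srrm2 1398940_at ended without ET3x1 low-salt rat 3 (adjusted p = 0.0724) or high-salt rat 4 (adjusted p = 0.059). Between ET3x2 and ET3x1, 3 were called, 2 higher and 1 lower, against 0.304% (0.123% higher and 0.181% lower). These were Srrm2 1390048_at (1.77 ± 0.38) and 1398940_at (0.65 ± 0.15), with a higher response in ET3x2, and Srsf2 1371839_at (-0.48 ± 0.11), each with an adjusted p of 0.0481. Under the Gapdh covariate they were 1.73 (adjusted p = 0.0882), 0.65 (adjusted p = 0.0923) and -0.47 (adjusted p = 0.0901). Their calls ended when any of 17 to 19 rats was left out, with an adjusted p of up to 0.141. Between ET3x2 and S limma called 0 members (background 0.0194%, with 0.00646% higher and 0.0129% lower), where 9 had an unadjusted p below 0.05 and limma with array weights called 2.

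Compared directly, the congenic strains differed in 5 members on low salt, 3 higher and 2 lower in ET3x2 (background 2.73%, with 0.995% higher and 1.73% lower), and in 10 on high salt, 3 higher and 7 lower (background 9.22%, with 5.49% higher and 3.74% lower). On low salt the calls were those of Srsf2, Snrpa and Hnrnpu given above, with Hnrnpr (-0.41 ± 0.12, adjusted p = 0.0485) and Hnrnpc, which binds uridine tracts in nascent RNA (-0.30 ± 0.08, adjusted p = 0.0342). Hnrnpc had 9.95, 9.90, 9.96 and 9.98 in ET3x1 and 9.69, 9.60, 9.62 and 9.69 in ET3x2, tight groups that did not overlap, yet leaving out any of 6 rats ended its call (adjusted p up to 0.0925), and any of 20 that of Hnrnpr (adjusted p up to 0.161). The Srsf2 1371839_at call was the only one of the 5 that no left-out rat and no alternative ended. It was also the only one kept with the Gapdh ratio as covariate. Quantile normalization left 2 calls, both higher. The low-salt count was 1 without ET3x1 rat 1 or ET3x2 rat 2, 2 without ET3x1 rat 4 or ET3x2 rat 4, and 3 without ET3x1 rat 3 or ET3x2 rat 1.

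On high salt Srrm2 1390048_at was higher in ET3x2 by 1.36 ± 0.27 (2.56-fold, adjusted p = 0.00407), its rats at 9.70, 10.19, 9.51 and 9.00 against 8.74, 8.90, 8.11 and 7.22 in ET3x1. Hnrnph2, of the same subfamily as Hnrnpf, was lower in ET3x2 with a difference of -0.73 ± 0.18 (1.66-fold, adjusted p = 0.0127), at 6.72, 6.84, 6.88 and 6.93 against 7.72, 7.85, 7.58 and 7.13. Sf3b2 1377070_at was lower with a difference of -0.41 ± 0.08 (adjusted p = 0.00345). None of these 3 overlapped between the strains. Fitted with the Gapdh ratio they were 1.29 (adjusted p = 0.094), -0.62 (adjusted p = 0.199) and -0.39 (adjusted p = 0.084), and 0 of the 10 members were called. The count of 10 became 6 without ET3x1 rat 3 or without ET3x2 rat 2.

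Probe sets of 1 gene were often not called together. A call for only 1 of them is not by itself a difference in direction. In ET3x1 on low salt, for example, 1 of the 2 Srsf1 probe sets was called, with differences of -0.33 and -0.21. Of the 48 tested genes, 15 had several tested probe sets. Over these genes and the 12 comparisons there were 55 pairs of gene and comparison with a call, and in 37 of them 1 probe set was called. In the other 18 pairs several were called, 12 times in the same direction and 6 times in both. The 6 were those of Sf3b1 and Srsf11 in both strains on low salt, Hnrnpdl in ET3x1 on low salt and Srrm1 in ET3x1 on high salt. Which transcripts each probe set reads was not analysed here.

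Of the 70 tested members, 48 were called in a comparison and 22 in none. The share of all tested probe sets called in any comparison was not counted, so these counts are not a result about the members. For 16 genes no probe set was called, among them Sf3a1, Sf3a3, Sf3b3 and Sf3b6 of the U2 complexes, the Sm proteins Snrpd1, Snrpd3 and Snrpf, and Hnrnpl and Hnrnpm. The group means of the 22 spanned between 0.11 and 0.54, where those of the 48 spanned between 0.22 and 1.67. A wide span helps a probe set to be called, so this contrast is no separate result. The 17 member probe sets below the filter were not tested. They include every probe set of Snrpa1, Snrpn, Srsf3 and Srsf7. Their group means spanned between 0.08 (Sf3b1 1382691_at) and 0.62 (Srsf6 1383466_at). In Srsf6 1383466_at the rats had 5.96, 6.09, 6.07, 5.78 and 6.37 in S on low salt and 6.55, 6.44, 6.24, 6.20 and 5.84 in S on high salt. In ET3x1 they had 5.97, 5.60, 5.62 and 5.71 on low and 6.15, 6.39, 6.48 and 6.36 on high salt, and the ET3x2 rats lay between 5.83 and 6.01 on low and between 5.61 and 5.92 on high salt. The ET3x1 diets did not overlap, and limma's F test without the filter gave an adjusted p of 8.21e-04. Fitted without the filter, the salt difference in ET3x1 was 0.62 ± 0.12 (adjusted p = 0.00128), and with the Gapdh ratio as covariate 0.37 ± 0.18 (adjusted p = 0.628), an alternative chosen after seeing the data.

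Further genes of the pathway were counted from lists. Of 66 tested genes of other spliceosome and snRNP assembly factors, each by its brightest probe set, 15 were called higher and 5 lower on low salt in ET3x1, and 15 and 5 in ET3x2, with median differences of 0.075 and 0.098. The background on low salt was 16.7% higher and 10.1% lower in ET3x1 and 9.49% and 8.71% in ET3x2, and it applies to the next lists too. Ddx41, an RNA helicase of the spliceosome, was higher by 0.49 ± 0.12 in ET3x1 (adjusted p = 0.00536) and 0.62 ± 0.12 in ET3x2 (adjusted p = 0.0015), and Lsm4, of the ring on U6 RNA, by 0.48 ± 0.09 in ET3x1 (adjusted p = 9.41e-04). On high salt 0 were higher and 8 lower in ET3x1 (background 4.89% and 9.63%), among them Ddx39a (-0.42 ± 0.10, adjusted p = 0.00689). Of 26 tested SR protein kinases and SR-related regulators, 3 were higher and 3 lower in ET3x1 and 2 higher and 4 lower in ET3x2 on low salt, where 26.8% and 18.2% of all tested probe sets were called. Son, a nuclear speckle scaffold, was lower with a difference of -0.54 ± 0.11 (adjusted p = 9.38e-04) and -0.55 ± 0.11 (adjusted p = 0.00101), and Clk1, a kinase of SR proteins, of -0.41 ± 0.10 in ET3x1 (adjusted p = 0.0051).

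Of 45 further splicing regulators and RNA-binding proteins, 4 were higher and 3 lower in ET3x1 on low salt, against 26.8% of all tested probe sets, and 2 higher and 11 lower in ET3x2, against 18.2%. Khsrp, which binds AU-rich RNA, was higher in ET3x1 by 0.66 ± 0.15 (adjusted p = 0.00232), and Pcbp4, a poly(C)-binding protein, by 0.72 ± 0.12 (adjusted p = 2.36e-04). On high salt both fell in ET3x1, with a difference of -0.91 ± 0.15 (adjusted p = 2.42e-04) and -0.56 ± 0.12 (adjusted p = 0.0029). Ptbp3, of the polypyrimidine tract-binding family, was lower in ET3x2 on low salt with a difference of -0.60 ± 0.12 (adjusted p = 0.00173), and Rbm3, a cold-inducible RNA-binding protein, of -0.53 ± 0.13 (adjusted p = 0.00657). For salt in ET3x1 the spliceosome list had 4 genes higher and 10 lower, the kinase list 0 and 2, and the RNA-binding list 3 and 3, against a background of 6.98% higher and 8.9% lower, all before the Gapdh covariate, under which 1 of the 15473 probe sets was called.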

How the data were processed

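The deposited series matrix holds log2 values that the authors had summarised and normalized, by methods not given in the sources used here. Per the labels' protocols, total RNA of each kidney was copied with an oligo(dT) primer and labelled as biotinylated cRNA. Each chip was fitted with limma 3.58.1 in R 4.3.3 over all 26 rats, with 6 group means, an intensity trend and 20 residual degrees of freedom. The 57 control probe sets per chip and probe sets with a mean below the chip median (7.51 on RAE230A, 6.38 on RAE230B) were left out, and 100 probe sets on both chips were tested on RAE230A, which left 7933 and 7540. The 12 comparisons and the F test were adjusted over both chips together. Symbols came from the platform annotation, and all 87 members have a RefSeq symbol. Genes were named when they had, within a family, 1 of the 5 widest ranges of group means among those past the F test, had opposite calls, or had 1 of the 2 largest calls each way in a comparison; from other lists the 2 largest calls were eligible. U2af1, Sf3a2, Snrpb, Snrpe, the genes without a call and the probe sets below the filter were added after their values were seen. The members, lists and rules were chosen with earlier results of these data known. Alternatives were other scalings, filters, weights, quality covariates and fewer rats. The fit was tested on simulated data. The number of arrays limits the precision.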

Additional observations from a re-analysis of the deposited data

Results flagged for a closer look

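In 264 groups of the named probe sets, 16 held 1 rat far from the others, and chance alone sets a rat apart in about 1 in 20 groups. In the hnRNP genes these were Hnrnpa2b1 1373540_at in rat 4 of ET3x1 on high salt (8.60, others 8.92 to 8.93), Hnrnpa2b1 1398883_at in rat 2 of ET3x1 on low salt (8.97, others 9.55 to 9.63) and Hnrnpr in rat 4 of ET3x2 on high salt (7.74, others 8.26 to 8.33). Hnrnpu 1370171_at stood apart in rat 3 of S on low salt (10.00, others 10.13 to 10.18) and in rat 3 of S on high salt (10.07, others 9.92 to 9.96). In the U2 genes they were Sf3b1 1389840_at in rat 3 of S on high salt (8.86, others 8.13 to 8.31), Sf3b2 1388614_at in rat 3 of ET3x2 on low salt (9.33, others 9.54 to 9.55), Sf3b5 in rat 1 of S on low salt (8.32, others 8.69 to 8.81) and U2af1l4 1393323_at in rat 4 of ET3x2 on low salt (6.20, others 6.35 to 6.37). Snrpa stood apart in rat 1 of ET3x1 on low salt (8.36, others 8.53 to 8.54). Srsf11 1368212_at did so in rat 3 of ET3x2 on low salt (8.55, others 8.04 to 8.10) and rat 4 of ET3x2 on high salt (8.19, others 8.67 to 8.75), and Srsf11 1382056_at in rat 2 of ET3x1 on low salt (8.46, others 7.78 to 7.88). The last were Srsf6 1371999_at in rat 5 of S on high salt (8.00, others 8.16 to 8.23), Srrm1 1371425_at in rat 4 of ET3x2 on low salt (9.17, others 9.28 to 9.29) and Srrm2 1398940_at in rat 1 of ET3x2 on low salt (8.88, others 8.68 to 8.70).

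The salt response differed between strains by limma's interaction test for 7 pairs of probe set and strains. Between ET3x1 and S the differences were -1.21 for Sf3b1 1389840_at, -0.69 for Srsf11 1382056_at, -1.55 for Srrm2 1390048_at and -0.55 for Srrm2 1398940_at. Between ET3x2 and ET3x1 they were -0.48 for Srsf2 1371839_at, 1.77 for Srrm2 1390048_at and 0.65 for Srrm2 1398940_at. All 7 involve the ET3x1 rats on high salt, whose Gapdh ratio was the lowest, and none was called with that ratio as covariate.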

How the results depend on the processing

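Of 98 named calls, none reversed under any alternative, 44 kept their call with every rat left out in turn, 31 under every other alternative and 24 under both. With the Gapdh ratio as covariate 41 were kept, with the spike-in difference (bioD minus bioC) 51, with the beta-actin ratio 71, with only the groups compared 77, and 91 to 97 under the others. The beta-actin ratio, and leaving out the 2 rats farthest from their group means, were chosen after seeing the data. The cause of the changes below was not tested.

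The counts of called members that moved by more than 1.5 times were as follows. Under quantile normalization ET3x2 against ET3x1 on low salt had 2, and without the filter the difference in salt response of ET3x2 and ET3x1 had 0. With array weights the count was 13 for ET3x2 against ET3x1 on low salt, 24 for salt in ET3x1, 10 for salt in ET3x2, and 12, 2 and 14 for the differences in salt response of ET3x1 and S, ET3x2 and S, and ET3x2 and ET3x1. With the Gapdh ratio it was 0 for ET3x1 against S on high salt, 11 for ET3x2 against S on low salt, 1 and 0 for ET3x2 against ET3x1 on low and high salt, 0 for salt in ET3x1, and 0 for the differences of ET3x1 and S and of ET3x2 and ET3x1. With the spike-in difference it was 4 for ET3x1 against S on high salt, 11 and 5 for ET3x2 against S on low and high salt, 3 for ET3x2 against ET3x1 on high salt, 1 for salt in S, 8 for salt in ET3x1, and 0 for the same 2 differences. With the beta-actin ratio it was 6 for ET3x1 against S and 6 for ET3x2 against ET3x1 on high salt, 1 for salt in S, 3 for salt in ET3x1 and 0 for the difference of ET3x2 and ET3x1. Without the 2 farthest rats it was 1, 20 and 2 for salt in S, ET3x1 and ET3x2, and 1 for the difference of ET3x2 and ET3x1. With only the groups compared it was 15 and 5 for ET3x2 against S on low and high salt, 1 for ET3x2 against ET3x1 on low salt, 1 for salt in S and 5 for the difference of ET3x2 and ET3x1.

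With each rat left out in turn, the counts ranged from 41 to 47 for the F test, 14 to 28 and 5 to 15 for ET3x1 against S on low and high salt, 13 to 26 and 0 to 10 for ET3x2 against S, and 1 to 6 and 6 to 12 for ET3x2 against ET3x1. They ranged from 1 to 5, 9 to 16 and 0 to 2 for salt in S, ET3x1 and ET3x2, and from 3 to 8, 0 to 0 and 0 to 5 for the differences of ET3x1 and S, ET3x2 and S, and ET3x2 and ET3x1. For the difference of ET3x2 and ET3x1 the calls were 2 higher and 1 lower, 2 and 2 under quantile normalization and 2 and 0 with centred medians. No scaling moved the median of all probe sets by more than 0.1. No paired analysis was possible because the labels give each rat an identifier and no number shared between groups.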
